A study of Mus musculus with 6 samples.

Results

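The genes described are the ligands and receptors of the vascular endothelial growth factor (VEGF) and angiopoietin systems in the mouse uterus, compared between oil and progesterone. They were taken by name, with no measured value in the rule: the VEGF family ligands Vegfa, Vegfb, Vegfc and Pgf, the VEGF receptors Flt1 and Kdr, the angiopoietins Angpt1 and Angpt2, and the receptors Tek and Tie1. All 10 were among the 18193 genes measured, with 18 probe sets between them. Each gene is given by its brightest probe set (by the mean of the 6 arrays), and 5 of the 10 have others, reported for agreement.

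The samples were uterine horns of female mice of mixed background with the genotype GATA2 f/f, a floxed Gata2 allele shared by both groups. No recombinase is named in the labels, so neither group is described as lacking Gata2. After ovariectomy at the age of 6 weeks, animals were injected when 8 weeks old with 100 µl of sesame oil, alone or carrying progesterone (1 mg), and uteri were collected 6 h afterwards. Each group had 3 Affymetrix arrays. RNA is described as pooled from 3 mice, and whether each array held a pool of its own is not stated, so the p-values reflect only how these samples vary, and some of that may be technical.

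VEGF ligands are secreted dimers that drive the growth, survival and permeability of endothelial cells. Vegfa binds Kdr, which carries most of the growth signal, and Flt1, which binds tightly and signals weakly; of the VEGF receptors only Flt1 binds Vegfb and Pgf, and Vegfc acts mainly on the lymphatic receptor Flt4. Angpt1 activates the receptor Tek and steadies vessels, Angpt2 competes with it in many settings, and Tie1 is a partner of Tek without a firmly assigned ligand of its own. In the uterus these genes are known for the remodelling of vessels through the cycle and at implantation.

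RefSeq promoter windows (GRCm38.p6) were at hand for 8 of the 10 genes, 10 windows in all, with none for Angpt1 and Angpt2. The 250 bases before the annotated start are printed for the genes that passed the test below in the plain fit, Pgf (both of its starts) and Vegfc, and for Vegfa (its upstream start) and Tek, which did not pass in that fit but did with the replicate number as a block, which compares arrays of the same number, so that the regions can be read beside the values. They run 5′ to 3′ on the gene's strand. Capitals mark matches, on either strand, to ACANNNTGT (the core of the palindromic steroid receptor element), TGTTCT (an arm of that element), ACGTG with its variant spelling GCGTG (hypoxia response element), AGATAA with its variant spelling TGATAA (some of the sites of GATA factors) and GGGCGG (GC box). Other spellings of the GATA site, such as AGATAG, were not searched or marked, and AGATAG occurs in the upstream Pgf window. TGTTCT can overlap ACANNNTGT, and the others can overlap in places.
Pgf, chr12:85177314-85177563, minus strand: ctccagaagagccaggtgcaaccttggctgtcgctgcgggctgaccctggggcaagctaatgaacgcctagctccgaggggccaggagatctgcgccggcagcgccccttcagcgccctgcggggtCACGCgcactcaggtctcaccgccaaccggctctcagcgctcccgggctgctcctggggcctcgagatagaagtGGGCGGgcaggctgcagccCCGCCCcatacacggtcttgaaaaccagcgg
Pgf, chr12:85175983-85176232, minus strand: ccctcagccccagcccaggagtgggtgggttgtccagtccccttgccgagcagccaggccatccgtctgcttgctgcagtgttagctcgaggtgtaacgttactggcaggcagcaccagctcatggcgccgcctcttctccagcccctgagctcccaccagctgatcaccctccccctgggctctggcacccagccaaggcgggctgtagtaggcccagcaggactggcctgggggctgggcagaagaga
Vegfc, chr8:54077282-54077531, plus strand: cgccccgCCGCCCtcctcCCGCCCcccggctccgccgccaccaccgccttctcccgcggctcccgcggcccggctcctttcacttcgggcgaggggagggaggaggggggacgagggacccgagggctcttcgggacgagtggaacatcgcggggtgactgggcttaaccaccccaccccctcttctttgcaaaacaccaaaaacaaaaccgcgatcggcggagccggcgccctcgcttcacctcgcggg
Vegfa, chr17:46032378-46032627, minus strand: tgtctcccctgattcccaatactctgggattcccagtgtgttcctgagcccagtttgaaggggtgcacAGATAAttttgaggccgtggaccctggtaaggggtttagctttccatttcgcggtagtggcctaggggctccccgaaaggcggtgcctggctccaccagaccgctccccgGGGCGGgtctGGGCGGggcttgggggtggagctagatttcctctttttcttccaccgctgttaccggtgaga
Tek, chr4:94739039-94739288, plus strand: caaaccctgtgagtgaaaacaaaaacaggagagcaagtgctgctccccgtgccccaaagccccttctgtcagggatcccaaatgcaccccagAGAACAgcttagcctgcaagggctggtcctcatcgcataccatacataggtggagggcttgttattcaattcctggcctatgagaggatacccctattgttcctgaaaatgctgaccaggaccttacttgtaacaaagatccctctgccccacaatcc

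ACANNNTGT was in 0 of the 10 windows of these genes and in 5.84% of all 32851 windows. TGTTCT was in the window of Tek, 158 to 153 bases before the start and on the opposite strand, and in 16.1% of all windows. The upstream Pgf window held GCGTG on the opposite strand, 124 to 120 bases before the start, a string found in 28.2% of windows. It also held 2 GC boxes, as did that of Vegfc, and 32.7% of windows held at least 1. GCGTG was also in the windows of Kdr, Flt1 and Vegfb and in the downstream window of Vegfa, which are not printed. GC boxes were in those windows too, and in the upstream Vegfa window. ACGTG, found in 16.6% of all windows, was only in the downstream Vegfa window, 211 to 207 bases before the start. AGATAA, found in 9.99% of windows, was 182 to 177 bases before the upstream start of Vegfa, and the downstream Pgf window held none of these strings. The GC content was 68.4% in the upstream Pgf window, 71.6% in that of Vegfc and 51.2% in that of Tek, against a median of 52.4% over all windows. These are matches of letters in short windows and say nothing about binding.

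Values are log2 expression from RMA, which corrects background, normalizes arrays by quantiles and combines the probes of a probe set. All 10 genes were above background on every array, with values from 5.48 to 9.05, where control probe sets against a bacterial gene (TrpnX) reached 3.34. Levels of different probe sets are not on a common scale and are not compared with each other. Progesterone and oil were compared with limma across all genes, with Benjamini-Hochberg adjustment and a threshold of 0.05. By that rule 5.92% of all genes were higher and 5.83% were lower after progesterone. Among the 10 genes 1 rose (Pgf), 1 fell (Vegfc) and 8 did not pass, counts too small to read against that background. The median log2 change was -0.14 over the 10 genes and -0.02 over all genes.

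**Figure D1:**
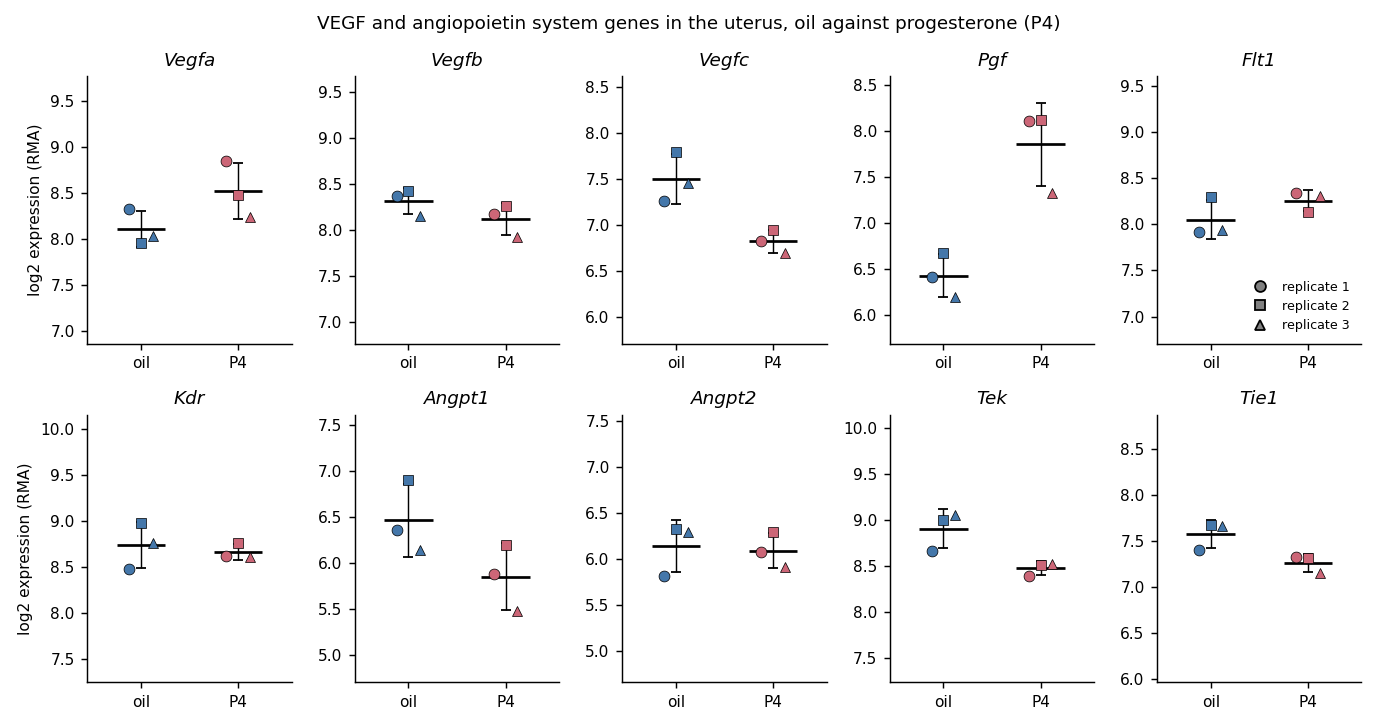
Log2 expression (vertical axis, a span of 2.9 log2 units in each panel) of the 10 genes on the 3 oil arrays (blue) and the 3 progesterone (P4) arrays (red); symbols give the replicate number, the long bar the mean and the whiskers the SD. The progesterone arrays of Pgf lie above all oil arrays, those of Vegfc, Tek and Tie1 lie below them, and the groups overlap in the other 6 genes.

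Pgf, placental growth factor, was 2.69-fold higher after progesterone. On the oil arrays it was 6.41, 6.67 and 6.20, and on the progesterone arrays 8.11, 8.12 and 7.33. All 3 progesterone arrays were above all 3 oil arrays, with 0.66 between the groups, and progesterone replicate 3 was the lowest of the treated arrays. The oil mean was 6.43 ± 0.235 and the progesterone mean 7.85 ± 0.453 (log2, ± SD, n = 3 each), a log2 change of 1.43 ± 0.234 SE (95% interval 0.88 to 1.98, limma adjusted p = 0.012). The change lay at the 99.2nd percentile of all 18193 genes. The call held in each of the 6 fits that left out 1 array (limma adjusted p from 0.00521 to 0.048). A single probe set measures Pgf here, so no other is available for agreement.

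Vegfa, the main ligand of Kdr, was 8.33, 7.96 and 8.04 with oil and 8.85, 8.48 and 8.24 with progesterone. Its groups overlapped: progesterone replicate 3 was below oil replicate 1. The log2 change was 0.41 ± 0.176 SE (95% interval 0.00 to 0.83, limma adjusted p = 0.192). With the replicate number as a block the estimate was the same and passed (limma adjusted p = 0.0489), and each progesterone array was above the oil array of its own number. The other probe set, 1451959_a_at, moved alike, with a log2 change of 0.49 ± 0.196 SE, and the difference in change between the probe sets was -0.07 ± 0.152 SE.

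The rise of Pgf was larger than the change of Vegfa on the same arrays. Pgf minus Vegfa was -1.92, -1.29 and -1.84 with oil and -0.74, -0.36 and -0.91 with progesterone, groups that do not overlap. The changes differed by 1.01 on the log2 scale (exact permutation over the 6 arrays, two-sided p = 0.1, the smallest this design can give; 0.267 adjusted over the 4 gene pairs compared). This design cannot reach 0.05 in that test.

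Vegfb, a Flt1 ligand tied mostly to metabolic tissues, was 8.37, 8.42 and 8.15 with oil and 8.17, 8.26 and 7.92 with progesterone. The groups overlapped, and the log2 change of -0.20 (95% interval -0.49 to 0.10, limma adjusted p = 0.397) did not pass.

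Vegfc, the lymphatic growth factor, was 1.60-fold lower after progesterone. It was 7.26, 7.79 and 7.45 with oil and 6.82, 6.95 and 6.70 with progesterone, so that every progesterone array was below every oil array, with 0.31 between the groups. The log2 change was -0.68 ± 0.15 SE (95% interval -1.03 to -0.32, limma adjusted p = 0.0315), at the 3.21st percentile of all genes. This call rests on the full set of arrays: it held in 1 of the 6 fits without 1 array, that without oil replicate 1 (limma adjusted p = 0.0401), and reached an adjusted p of up to 0.086 in the others. With the mean of its 3 probe sets the change was -0.47 (limma adjusted p = 0.13). The probe set 1419417_at had a log2 change of -0.56 ± 0.214 SE and 1439766_x_at, of a kind whose probes can also match other transcripts, of -0.18 ± 0.193 SE. Neither passed in the fit over every probe set of the array (limma adjusted p = 0.18 and 0.68), in which 7.77% of 45037 probe sets passed. The annotation names a transcript for 1419417_at but not for the brightest probe set, 1440739_at, or for 1439766_x_at. The change of 1440739_at minus that of 1439766_x_at was -0.49 ± 0.171 SE, and minus that of 1419417_at it was -0.12 ± 0.148 SE. Neither difference passed in a limma fit of such differences, added after the values were seen (limma adjusted p = 0.243 and 0.832).

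**Figure D2:**
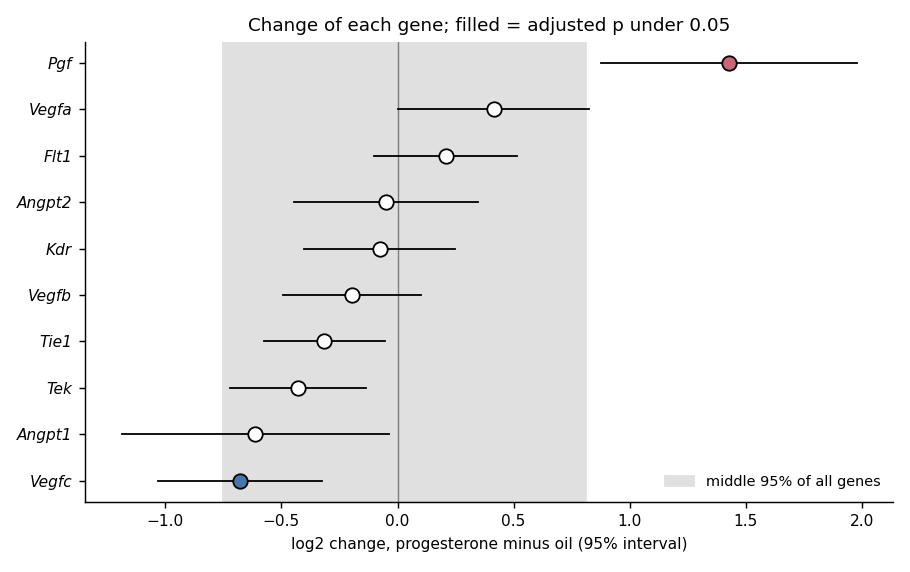
Log2 change (progesterone minus oil, horizontal axis) of the 10 genes with its 95% interval from limma; filled circles passed at an adjusted p under 0.05, and the grey band holds the middle 95% of changes over all genes, from -0.75 to 0.81. Pgf lies outside the band, and Vegfc, at -0.68, is inside it.

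Kdr, the main signalling receptor for Vegfa, was 8.48, 8.98 and 8.76 with oil and 8.62, 8.76 and 8.61 with progesterone. The progesterone arrays lay within the range of the oil arrays, and the log2 change was -0.08 (95% interval -0.40 to 0.25, limma adjusted p = 0.807). The interval leaves room for changes of up to 0.40 downwards, so a small difference was not detectable with these arrays.

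Flt1, the receptor for Vegfa, Vegfb and Pgf, was 7.92, 8.30 and 7.94 with oil and 8.34, 8.13 and 8.31 with progesterone. The groups overlapped, with a log2 change of 0.21 (95% interval -0.10 to 0.51, limma adjusted p = 0.392). Flt1 has 4 probe sets, and they did not move one way. The brightest, 1451756_at, had a log2 change of 0.21 ± 0.132 SE in the fit over every probe set, 1440926_at of 0.17 and 1454037_a_at of 0.14, while 1419300_at had -0.23 ± 0.134 SE, and none of the 4 passed.

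The brightest probe set minus 1419300_at was 0.21, 0.20 and 0.12 on the oil arrays and 0.53, 0.60 and 0.71 on the progesterone arrays. The spread within each group (SD 0.0493 and 0.0907) was small beside the shift of 0.44 ± 0.121 SE. This comparison was chosen after the values were seen. In a limma fit of such differences over all 16752 further probe sets of 9010 genes it had an unadjusted p of 0.0059 and did not pass (limma adjusted p = 0.141), and 1.33% of them did. Flt1 is known to give both a membrane receptor and a secreted form that traps ligand, but the annotation used does not say which form each probe set detects. The changes of Flt1 and Kdr, by the probe sets used, differed by 0.28 (exact permutation p = 0.2, adjusted 0.267), and by 0.15 with the mean of probe sets.

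**Figure D3:**
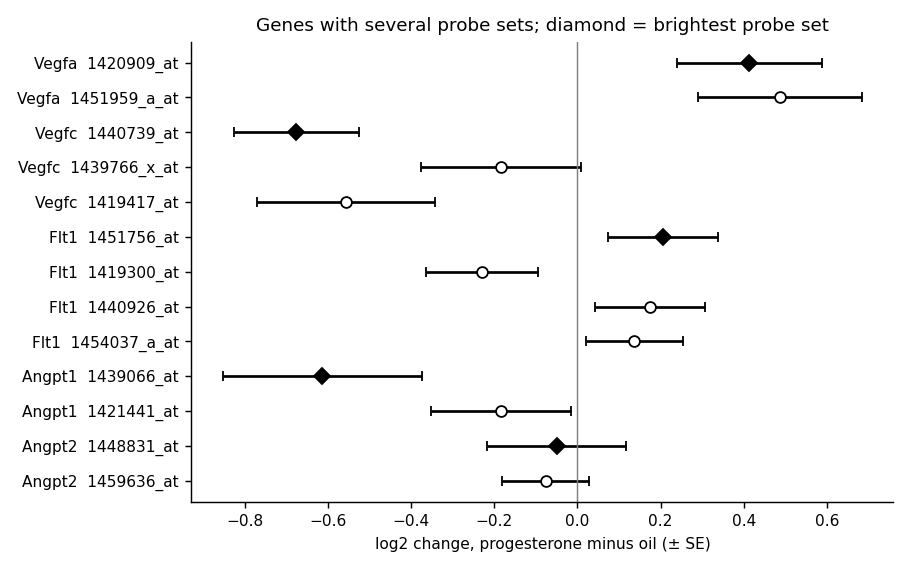
Log2 change (progesterone minus oil, horizontal axis, with SE) of each probe set of the 5 genes that have several, from the fit over every probe set; diamonds are the brightest probe set of a gene. Both Vegfa probe sets lie above 0, all 3 of Vegfc lie below 0, and 1 of the 4 of Flt1, 1419300_at, lies on the other side of 0 from the rest.

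Angpt1, the activating ligand of Tek, was 6.36, 6.91 and 6.14 with oil and 5.89, 6.20 and 5.48 with progesterone. The groups overlapped by 0.06, because progesterone replicate 2 was just above oil replicate 3. The log2 change of -0.61 ± 0.245 SE (1.53-fold lower, 95% interval -1.19 to -0.04) did not pass (limma adjusted p = 0.166). It passed with the replicate number as a block (limma adjusted p = 0.0123), and each progesterone array was below the oil array of its number. The dim second probe set, 1421441_at, was at 3.28 to 3.98, close to the level of the control probe sets, and had a log2 change of -0.18 ± 0.169 SE.

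Angpt2, the context-dependent antagonist, was 5.81, 6.32 and 6.29 with oil and 6.07, 6.29 and 5.91 with progesterone. The progesterone arrays lay within the range of the oil arrays (log2 change -0.05, 95% interval -0.45 to 0.35, limma adjusted p = 0.903). Angpt2 minus Angpt1 was -0.55, -0.59 and 0.15 with oil and 0.18, 0.09 and 0.43 with progesterone, with oil replicate 3 inside the range of the progesterone arrays. The changes of the angiopoietins differed by 0.56 (exact permutation p = 0.2, 0.267 adjusted over the 4 pairs), and by 0.335 with the mean of probe sets.

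Tek, the angiopoietin receptor also called Tie2, was 8.66, 9.0 and 9.05 with oil and 8.39, 8.51 and 8.52 with progesterone. The groups lay apart by 0.14, and the mean fell by 0.43 on the log2 scale (SE 0.125, 95% interval -0.72 to -0.14), a difference that missed the threshold (limma adjusted p = 0.0707). With the replicate number as a block it passed (limma adjusted p = 0.0352). It also passed with a trended, robust variance (limma adjusted p = 0.0476) and without oil replicate 1, where the change was -0.55 (limma adjusted p = 0.0432).

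Tie1, the second receptor of the family, was 7.40, 7.67 and 7.66 with oil and 7.32, 7.31 and 7.15 with progesterone. Its groups lay apart by 0.08, with a log2 change of -0.32 ± 0.111 SE (95% interval -0.58 to -0.06, limma adjusted p = 0.119). The changes of Tie1 and Tek differed by 0.11 (exact permutation p = 0.3, also 0.3 adjusted over the 4 pairs).

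Among the 10 genes, the progesterone arrays were all below the oil arrays in 3 (Vegfc, Tek and Tie1), where 15.9% of all genes did so, and all above in 1 (Pgf), where 14.5% did. An unadjusted limma p under 0.05 with a lower mean was seen in 4 of the 10, with Angpt1 beside those 3, against 13.8% of all genes, and with a higher mean in 1, against 12.2%. With the replicate number as a block 2 of the 10 were higher, Pgf (limma adjusted p = 0.00276) and Vegfa, where 7.6% of all genes were. In the same fit 3 were lower, Vegfc (limma adjusted p = 0.0139), Angpt1 and Tek, where 8.49% of all genes were.

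Within groups, many of the 10 genes had the same lowest or highest array, and how many of all genes did so was not counted. Of the 3 oil arrays, oil replicate 1 was lowest for 6 genes (Vegfc, Flt1, Kdr, Angpt2, Tek and Tie1), and oil replicate 2 was highest for 8. Of the 3 progesterone arrays, progesterone replicate 3 was lowest for 8. Markers of endothelial cells, chosen from general knowledge, had the same lowest and highest oil arrays: their mean over 22 genes was 7.98, 8.37 and 8.36 on oil replicates 1, 2 and 3. On the progesterone arrays it was 7.97, 8.17 and 8.03, with progesterone replicate 1 the lowest. In whole tissue, fewer endothelial cells and less RNA per cell cannot be told apart.

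Of the 22 endothelial markers 0 were higher, 2 were lower and 20 did not pass in limma (7 had an unadjusted p under 0.05, and with the replicate block 1 was higher and 4 lower). The median log2 change was -0.18, and 16 had a lower mean after progesterone. Sox7, an endothelial transcription factor, was 2.11-fold lower (limma adjusted p = 0.0156), and Cldn5, the claudin of endothelial tight junctions, was 1.88-fold lower (limma adjusted p = 0.0217). The 5 markers with a higher mean did not pass. Gpihbp1 and Icam2 rose most among them, with log2 changes of 0.53 and 0.52 (limma adjusted p = 0.123 and 0.12). The level summed over the list ranged from 13.0 to 13.4 with oil and from 13.0 to 13.1 with progesterone (log2 of the sum), and none of the markers was at the control level. The receptors were therefore also set against the mean of these markers on the same array, a mean over genes that moved in both directions.

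Tek minus the endothelial mean was 0.68, 0.63 and 0.69 with oil and 0.42, 0.34 and 0.49 with progesterone. Set this way the oil arrays lay within an SD of 0.0339, where Tek alone had an SD of 0.212, and the groups did not overlap. The change of Tek minus that of the marker mean was -0.25. Flt1 minus the endothelial mean was -0.06, -0.07 and -0.42 with oil and 0.37, -0.04 and 0.28 with progesterone, also without overlap, a difference of 0.39. With the mean of probe sets in place of the brightest that difference was 0.20 (exact permutation p = 0.3). For Kdr and Tie1 the groups overlapped, with differences of 0.11 and -0.13. By exact permutation, whose smallest p is 0.1 here, p was 0.1 for Tek and Flt1 and 0.3 for Kdr and Tie1 (0.2 and 0.3 adjusted over the 4 receptors).

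**Figure D4:**
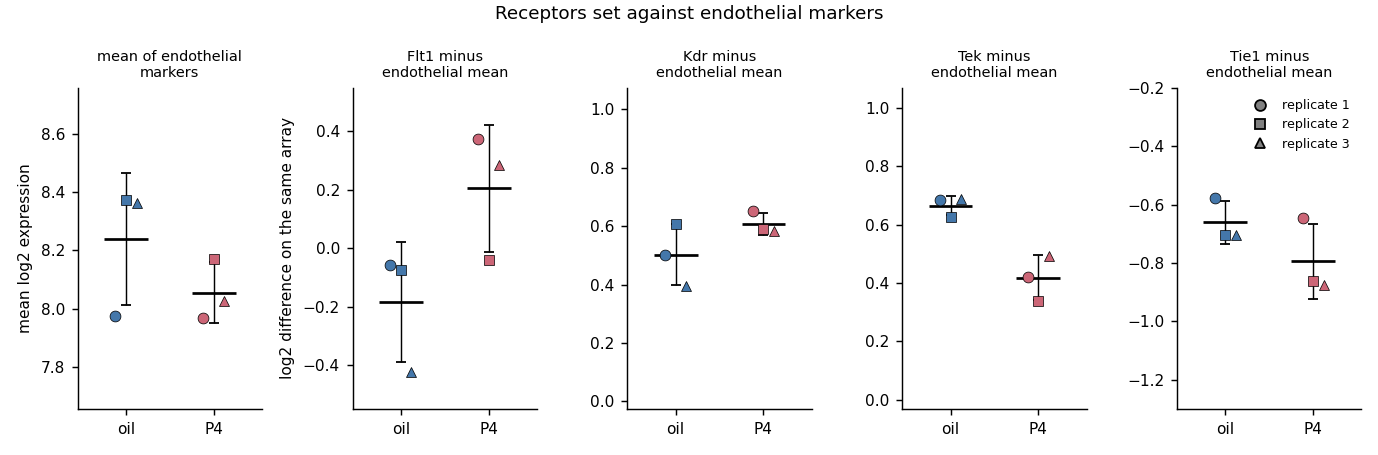
Mean log2 expression of 22 endothelial markers (left panel) and the log2 level of each receptor minus that mean on the same array (other panels), for 3 oil and 3 progesterone (P4) arrays, with mean and SD; every panel spans 1.1 log2 units. By the brightest probe set Tek lies lower after progesterone and Flt1 higher, both without overlap of the groups, while Kdr and Tie1 overlap.

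Markers of other cells that can hold these genes were read on the same arrays. Of 9 pericyte markers 0 were higher and 3 lower (Anpep, Mcam and Abcc9, the last encoding a potassium channel subunit, from 1.40-fold to 1.69-fold lower), where 5.83% of all genes were lower. The other 6 did not pass, with log2 changes from -0.65 (Kcnj8) to 0.18 (Higd1b) and that of Rgs5 at -0.14. The median log2 change over the list was -0.23, with a lower mean in 8 and a higher mean in 1. The level summed over the pericyte list was between 13.5 and 13.7 with oil and was 13.2 on all 3 progesterone arrays (log2 of the sum). Of 6 adipocyte markers none passed in limma, 4 had an unadjusted p under 0.05 and all 6 had a lower mean, with Adipoq at 8.02, 8.11 and 7.08 with oil and 5.80, 7.21 and 4.39 with progesterone. The summed level of the adipocyte list was 10.5 to 11.1 with oil and 9.65 to 10.7 with progesterone, and with the replicate block 4 of the 6 were lower. Of 6 markers of lymphatic endothelium, on which Vegfc acts, 0 passed in limma and 0 had an unadjusted p under 0.05, and with the replicate block 1 was lower, Pdpn. The summed level of that list was 10.1 to 11.0 with oil and 9.73 to 11.0 with progesterone. The part of pericytes, fat and lymphatic endothelium in the values of Angpt1 and Vegfc was not tested.

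The labelled tissue carried its own markers: on every array the mean of the epithelial list was at least 9.66, that of the stromal list at least 10.79 and that of the smooth muscle list at least 11.7. Of 10 epithelial markers 1 was higher (Cldn3), and of 11 stromal markers 3 were higher (Hoxa11, Hoxa10 and Hand2) and 1 was lower (Lum). An unadjusted limma p under 0.05 was seen in 3 of the 10 and 6 of the 11. Of the epithelial markers 7 had a lower mean, with a median log2 change of -0.19 over the list. Krt18 and Elf3 lay below all oil arrays without passing (log2 changes -0.76 and -0.72, limma adjusted p = 0.0589 and 0.128). Of 9 smooth muscle, 8 neutrophil and 4 erythroid markers 0 passed in limma, and 1, 0 and 0 had an unadjusted p under 0.05. The arrays also differed in neutrophil transcripts in a way the groups do not explain, with a neutrophil list mean of 7.22 to 7.78 and S100a8 at 11.82, 12.02 and 12.48 on oil replicate 3 and progesterone replicates 2 and 3 and a list mean of 4.33 to 4.43 and S100a8 between 4.34 and 5.01 on the other 3. Macrophage markers, of which 1 of 11 was higher (Mertk), ranged widely too, with a list mean between 6.65 and 8.06. Within the arrays low in S100a8 (2 oil, 1 progesterone) the log2 change of Pgf was 1.57 and that of Vegfc -0.705, and within those high in it (1 oil, 2 progesterone) they were 1.525 and -0.625. With this class as a block, a fit chosen after the values were seen, Pgf (limma adjusted p = 0.0076), Vegfc (0.0452) and Tek (0.0462) passed. Liver transcripts stood out on oil replicate 3, with a list mean of 6.09 against 3.98 to 4.51 elsewhere. Of 7 liver markers 1 passed, Ttr, as higher, and the other 6 had a lower mean. Without oil replicate 3 Pgf still passed and Vegfc did not (limma adjusted p = 0.0682).

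The partners of these ligands and receptors were taken from a fixed list. Of 27 measured pathway genes, among them coreceptors, phosphatases and adaptors, 1 passed as lower, 0 as higher and 26 in neither direction, with a median log2 change of -0.07. Of the 27, 8 had an unadjusted p under 0.05 in limma, where 12.2% of all genes were higher and 13.8% lower at that level. The gene that passed was Nrp2, a coreceptor that binds Vegfc beside its semaphorin ligands. It was 8.72, 8.87 and 8.64 with oil and 7.86, 8.14 and 7.68 with progesterone, 1.80-fold lower without overlap (log2 change -0.85 ± 0.137 SE, limma adjusted p = 0.0113), and its call ended without oil replicate 2. The Vegfa coreceptor Nrp1 was at 10.14 with oil and 10.21 with progesterone (limma adjusted p = 0.794). Vegfd, the nearest relative of Vegfc, went from 8.22 to 7.66 and did not pass (limma adjusted p = 0.205), and Flt4, the receptor of both, went from 7.54 to 7.31 (limma adjusted p = 0.594). Ptprb, the phosphatase that restrains Tek, went from 9.51 to 9.23 (limma adjusted p = 0.305). With the replicate block 2 partners were lower, Nrp2 and Mmrn2, an endothelial matrix protein (limma adjusted p = 0.0369).

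Vegfa is a classic target of hypoxia-inducible factors, and the genes of that control that passed lay in both directions. Of 24 measured regulators and targets 4 were higher, 3 were lower and 17 did not pass, with a median log2 change of -0.01. Over all genes 5.92% were higher and 5.83% lower. An unadjusted limma p under 0.05 was seen in 11 of the 24, where 12.2% of all genes were higher and 13.8% lower at that level. Hif1a, the oxygen-regulated subunit, was 1.74-fold higher (11.33, 11.33 and 11.52 with oil, 12.44, 12.20 and 11.93 with progesterone, limma adjusted p = 0.0163). P4ha2, a collagen prolyl hydroxylase, was 3.80-fold higher, Higd1a, a mitochondrial protein, was 2.42-fold higher, and Cited2, which restrains hypoxia-inducible factors, was 1.61-fold higher. Mxi1, an antagonist of Myc, was 2.27-fold lower, and Kdm3a, a histone demethylase, and Ndrg1 were 1.64-fold and 1.39-fold lower. Epas1, the endothelial relative of Hif1a, went from 11.17 to 10.94 (limma adjusted p = 0.24), and the glycolytic targets Pgk1 and Ldha and the prolyl hydroxylase Egln3 did not pass. Slc2a1, also on the list, was 1.78-fold higher without overlap of the groups and just missed the threshold (limma adjusted p = 0.0533). With the replicate block 6 of the 24 were higher and 3 lower, and Ldha passed (limma adjusted p = 0.0451). Without oil replicate 2 the number past the threshold in either direction fell from 7 to 4. Adm, adrenomedullin, a hypoxia target and vessel peptide, went from 8.16 to 8.64 (limma adjusted p = 0.173, and 0.0251 with the replicate block).

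Of 22 measured genes of endothelial sprouting 2 passed as higher, 1 as lower and 19 in neither direction, with a median log2 change of -0.01. An unadjusted limma p under 0.05 was seen in 9 of the 22, where 12.2% of all genes were higher and 13.8% lower at that level. Cxcr4, the chemokine receptor of tip cells and of many leukocytes, was 2.90-fold lower, from 8.42, 7.97 and 8.07 to 6.04, 6.74 and 7.07. Adamts1, a secreted protease, was 1.76-fold higher, and Rgcc was 1.54-fold higher. Dll4 and Esm1, tip cell genes downstream of Kdr, had log2 changes of -0.23 and 0.14 (limma adjusted p = 0.512 and 0.606). Esm1 was at 3.58 to 4.08, close to the level of the control probe sets, so its change says little. With the replicate block 3 of the 22 were higher and 3 lower, and the number past the threshold in either direction fell from 3 to 0 without oil replicate 1 and to 1 without oil replicate 2.

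**Figure D5:**
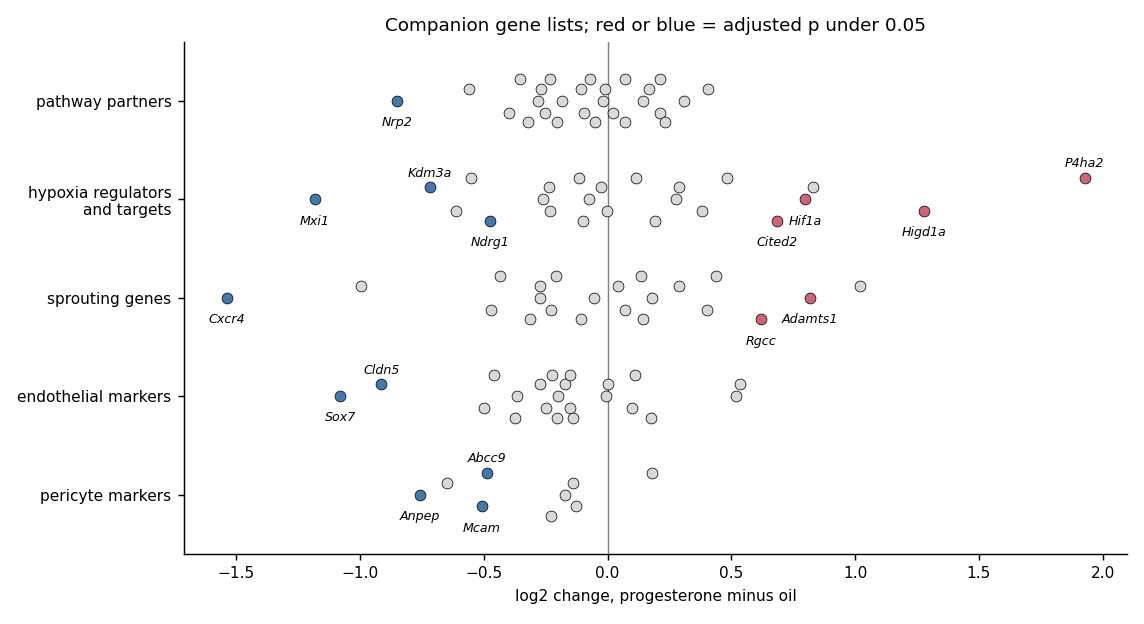
Log2 change (progesterone minus oil, horizontal axis) of each measured gene in 3 gene lists and 2 marker lists, 1 circle a gene; red and blue circles passed at a limma adjusted p under 0.05 and are named. Genes of hypoxia control lie on both sides of 0. The endothelial and pericyte markers that passed are all below 0, and those that did not pass lie on both sides of it.

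The genes whose pattern over the 6 arrays was most like that of Pgf, each centred on its own mean, were Ccng1, a cyclin of the p53 response (root mean square difference 0.147 on the log2 scale), Atp7b, a copper transporter (0.154), and Nrip3 (0.165). Their log2 changes were 1.30, 1.32 and 1.46, and progesterone replicate 3 was the lowest of the progesterone arrays in each. For Vegfc they were Ephx1, microsomal epoxide hydrolase (0.0269), Ctsf, cathepsin F (0.0484), and Pnpla7, a lysophospholipase (0.059), with log2 changes of -0.67, -0.69 and -0.59. Oil replicate 2 was the highest array for all 3, as it was for Vegfc. Likeness over 6 arrays that fall in 2 groups is a description.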

How the data were processed

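Expression was measured on 6 one-colour Affymetrix arrays, 3 with oil and 3 with progesterone, grouped by the sample titles. The deposited values are log2 expression per probe set, and the authors used Partek 6.6 and RMA per the submitters' processing notes; further settings are not given in the sources used here. Array medians were 5.51 to 5.53. Background is taken from 3 TrpnX control probe sets, and the number of arrays limits precision.

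Of 45101 probe sets 34945 had 1 gene symbol in the platform annotation, 932 several and 9160 none. All 18 probe sets of the 10 genes matched an identifier in the RefSeq table, with 0 symbols changed. The brightest probe set of each gene (18193 in all) was fitted with limma 3.58.1 in R 4.3.3 (lmFit, eBayes, no filter, two-sided, Benjamini-Hochberg over all genes). Intervals are 95% with 7.16 degrees of freedom. Differences between genes on the same array were tested by exact permutation (scipy 1.17.1).

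The genes and lists were set by name from general knowledge, with no measured value in the rule, but with earlier results of these data known. Besides the 10 genes, each list contributed up to 4 genes past the threshold by size of change, or the largest change where none passed; others named to complete a count or a pathway were chosen after their values were seen. Pgr and Gata2, which are not among the 10 genes but which the rule for named genes adds, are not described. Replicate numbers are shared by the groups, and deviations from the group means correlated at 0.523, 0.141 and 0.636 between same-numbered arrays across genes. All were above 0.1, so the numbers were taken to pair the arrays, though the labels do not say what a number shares. The pairing is weak for replicate 2: oil replicate 2 correlated at 0.322 with progesterone replicate 1 and at 0.141 with its own number. Other arrays of different number correlated at -0.598 to -0.0545. Calls that passed only with the replicate block, those of Vegfa and Angpt1, rest on this pairing. Tested on simulated data for progesterone against oil with 18193 genes, the fit found 4 of 50 genes with a log2 change of 0.5, 41 of 50 changed by 1, 47 of 50 by 2 and 48 of 50 by 3, with 9 false among 149 calls. Only these genes, 50 of each size, were changed there, whereas the fit of the data called 1077 genes higher and 1060 lower. The adjustment was therefore stricter in the simulation, and its recovery can be lower than in the data. Alternatives were quantile renormalization, median centring of the arrays, adding 32 to linear values, dropping the dimmest 25% of genes, the mean of probe sets, trended and robust eBayes, the replicate block, each array left out and, added after seeing the data, the class of arrays by S100a8 (above or below 10) as a block.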

Additional observations from a re-analysis of the deposited data

How the results depend on the processing

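Pgf passed as higher under every alternative run (log2 change 1.29 to 1.69 without 1 array). Vegfc had a log2 change of -0.47 with the mean of probe sets, which ended its call, and -0.80 to -0.53 without 1 array. The changes without 1 array were 0.25 to 0.555 for Vegfa, -0.28 to -0.0983 for Vegfb, 0.14 to 0.33 for Flt1, -0.785 to -0.39 for Angpt1, -0.21 to 0.0433 for Kdr, -0.21 to 0.04 for Angpt2 and -0.55 to -0.36 for Tek. Tek passed with trended robust eBayes (-0.43), the replicate block (-0.43) and the S100a8 class as a block (-0.49). Vegfa (0.41) and Angpt1 (-0.61) also passed with the replicate block, which left the calls of the other 7 genes as they were. The number of the 10 genes past the threshold as lower was 0 with the mean of probe sets, 2 with trended robust eBayes, 3 with the replicate block, 2 with the S100a8 class as a block and 0 to 2 without 1 array, and the number higher was 2 with the replicate block. Over all genes 379 to 848 were higher and 278 to 907 lower without 1 array. Pathway partners past the threshold numbered 3 with the offset of 32, 2 with the mean of probe sets, 2 with the replicate block and 0 to 1 without 1 array. Sprouting genes numbered 6 with the replicate block and 0 to 3 without 1 array, and hypoxia genes 4 to 7 without 1 array. All 80 alternative values of the differences between genes on the same array kept their direction, in a design that cannot pass the threshold, but with the mean of probe sets 4 shrank by over 1.5 times: Flt1 minus Kdr (0.15), Flt1 and Kdr minus the endothelial mean (0.20 and 0.06) and Angpt2 minus Angpt1 (0.335). Without 1 array Tie1 minus Tek was 0.04 to 0.19, Kdr minus the endothelial mean as low as 0.05 and Tie1 minus that mean as low as -0.21. With 3 arrays a group, changes near 0.5 on the log2 scale were mostly missed in the simulated data, in which far fewer genes were changed than were called in the real data.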
